A study of Homo sapiens with 24 samples.

Results

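MYC, its partner MAX, the MAX-binding antagonists MXD1, MXD3, MXD4, MXI1 and MNT, and the serine/threonine kinases PIM1, PIM2 and PIM3 form a set of 10 genes that were chosen by name. All 10 were among the 21831 genes of the deposited tables, and all 10 were among the 13419 genes kept by a filter on low counts. Expression was measured by RNA-seq in HBL1, an established human cell line of the activated B-cell-like type of diffuse large B-cell lymphoma. Cells were exposed to dimethyl fumarate (DMF, 20 µM, in DMSO) or, as control, to the solvent DMSO. Collection was at 6, 12, 24 and 48 h. Each treatment had 3 libraries per time, which makes 24 in all. DMF is an electrophilic fumaric acid ester that modifies cysteine residues. A single cell line was used, and the labels do not say whether the 3 libraries of a group came from separate cultures, so the p-values below measure only the spread between libraries, which may be technical.

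MYC is a transcription factor that binds E-box DNA as a heterodimer with MAX and raises the transcription of genes for ribosome biogenesis, nucleotide synthesis and cell-cycle entry. The MXD proteins, MXI1 and MNT compete for MAX, bind the same E-boxes and recruit SIN3 and histone deacetylases, so that they repress genes that MYC activates. PIM kinases are active as soon as they are made, and their activity is set largely by transcription, for which STAT3, STAT5 and NF-kB are known activators in lymphoid cells. They phosphorylate proteins of survival and cap-dependent translation, and PIM1 cooperates with MYC in lymphoma formation in mice.

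Libraries held between 2870751 expected counts, in replicate 1 of DMF at 48 h, and 40906596. All 8 B cell markers examined exceeded 10 TPM (a transcript abundance scaled by effective length and library total) in 22 libraries, where all 6 T cell markers were below 1 TPM. Of 6 myeloid markers 5 were below 1 TPM, and their summed level was 3.68 to 11.3 TPM with DMF and 2.51 to 4.86 TPM in control; its part in the results was not tested. The replicate 3 libraries at 12 h differed from these 22: weighted by counts, effective transcript length averaged 2121 bases in the DMF library and 1902 bases in the control library, against 2850 to 3157 bases elsewhere. With them in the fit the common dispersion between replicates was 0.0521, and without them it was 0.00212. Tests are therefore given from a fit of all 24 libraries and, beside it, from the 22 others. Levels below are CPM, the read count relative to the TMM-scaled library total, unless TPM is named, fold changes are DMF over control, and a gene is named as called where its adjusted p was under 0.05 (edgeR quasi-likelihood test, Benjamini-Hochberg over all genes tested).

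Promoters of the 3 PIM genes and MXD1 are shown because of their differences from control. PIM1 and PIM2 were lower with DMF at 24 and 48 h, while PIM3 and MXD1 were higher at 6, 12 and 24 h. Each is the 250 bases before the RefSeq start on GRCh38.p14, read 5′ to 3′ on the gene's strand: MXD1 at chr2:69914859-69915108 (plus strand), PIM1 at chr6:37169902-37170151 (plus), PIM2 at chrX:48919025-48919274 (minus) and PIM3 at chr22:49960522-49960771 (plus). Capitals mark a match to a searched motif.
MXD1: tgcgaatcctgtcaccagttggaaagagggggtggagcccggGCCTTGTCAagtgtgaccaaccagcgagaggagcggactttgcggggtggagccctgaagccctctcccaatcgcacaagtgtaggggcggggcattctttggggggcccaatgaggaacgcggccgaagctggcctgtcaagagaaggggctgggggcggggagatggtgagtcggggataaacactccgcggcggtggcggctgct
PIM1: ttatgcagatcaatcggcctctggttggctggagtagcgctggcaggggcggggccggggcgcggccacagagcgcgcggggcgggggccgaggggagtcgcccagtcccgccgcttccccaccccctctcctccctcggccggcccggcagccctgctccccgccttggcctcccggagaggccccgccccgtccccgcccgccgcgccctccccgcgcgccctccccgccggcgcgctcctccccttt
PIM2: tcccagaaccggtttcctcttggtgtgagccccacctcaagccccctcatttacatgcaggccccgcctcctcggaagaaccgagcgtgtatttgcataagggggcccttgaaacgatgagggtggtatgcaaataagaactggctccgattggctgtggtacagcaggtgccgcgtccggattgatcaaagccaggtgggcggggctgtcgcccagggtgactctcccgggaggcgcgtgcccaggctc
PIM3: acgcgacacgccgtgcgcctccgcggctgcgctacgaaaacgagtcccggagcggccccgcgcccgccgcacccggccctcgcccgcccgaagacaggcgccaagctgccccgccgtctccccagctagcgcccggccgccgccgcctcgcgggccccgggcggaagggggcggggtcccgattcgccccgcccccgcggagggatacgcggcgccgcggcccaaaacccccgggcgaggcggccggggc

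Promoters of 9 of the 10 genes were found by symbol, as 12 windows of 300 bases that reach 50 bases past the start. Both strands were searched for the E-box CACGTG, the STAT (GAS) motif TTCNNNGAA, the core of the antioxidant response element TGACNNNGC, the ATF4 motif TGATGNAA and the heat shock element GAANNTTC. The MXD1 window held 1 match, to the antioxidant core, starting 208 bases before the start. That core occurred in 13.3% of 35116 RefSeq promoters of the same length. The 3 PIM windows held none of the 5 motifs, which says only that these letters are absent there. The E-box occurred once each in the windows of MXD4 (238 bases before the start) and MNT (193 bases before), against 7.26% of all promoters. The GAS motif, in 7.66% of all promoters, the ATF4 motif, in 3.62%, and the heat shock element, in 6.77%, were found in none of the 12 windows. GC content was 79.6% for PIM1, 61.2% for PIM2, 82% for PIM3 and 64.4% for MXD1 in the 250 bases printed.

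By TPM, a scale on which genes can be compared, PIM1 was the most abundant member in the 22 libraries, with 714 to 2037 TPM and a median of 1055. PIM2 followed at 386 to 729 TPM, and within each treatment and time all its values lay below those of PIM1. PIM3 ranged over 84.0 to 228 TPM, MYC over 60.9 to 118 TPM and MAX over 50.5 to 94.1 TPM, and these 3 ranges overlapped. The antagonists were lower than these: MXI1 spanned 6.33 to 34.0 TPM, MXD3 5.95 to 26.6 TPM, MNT 4.63 to 9.97 TPM, MXD4 3.59 to 8.60 TPM and MXD1 1.20 to 7.73 TPM, all overlapping. The lowest member count in any library was 50.17 expected counts, for MXD3. Reads of MXD3 may be shared with its neighbours PRELID1, on the opposite strand at 252 to 534 TPM, and RAB24, on the same strand. Gene spans in GENCODE v29 also overlap between MXD1 and SNRNP27 on the same strand (20.7 to 72.3 TPM) and between MAX and FNTB on the opposite strand. The strand setting of the counting was not given, so values of MXD3 and MAX carry uncertainty from neighbours on the opposite strand. A strand setting could not separate neighbours on the same strand, RAB24 for MXD3 and SNRNP27 for MXD1. Whether reads were shared was not tested.

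Between DMF and control, 3 of the 10 members were called at 6 h, all higher, when 10.6% of all genes tested were called (5.03% higher, 5.59% lower). At 12 h 2 were higher and 1 lower (17.3% of all genes, 7.37% higher and 9.95% lower). At 24 h 2 were higher and 3 lower (14.4% of all genes, 7.81% higher and 6.60% lower). At 48 h 1 was higher and 4 were lower (25.8% of all genes, 13.3% higher and 12.5% lower). In the 22 libraries the counts were 5 higher and 1 lower at 6 h (47.2% of all genes called in either direction), 4 higher and 3 lower at 12 h (47.9%), 3 higher and 4 lower at 24 h (57.4%), and 3 higher and 5 lower at 48 h (64.5%). The median log2 fold change over the members was 0.18, 0.06, -0.06 and -0.38 at 6, 12, 24 and 48 h, against medians between -0.05 and 0.02 over all genes tested. Replicate numbers paired the 12 h libraries, where replicate 3 of both treatments deviated together, and a fit with a replicate block called 6 members and 6411 of the 13419 genes at 12 h. CPM of DMF and control did not overlap for 7, 3, 6 and 8 members at the 4 times, beside 59.9%, 16.7%, 63.9% and 60.7% of all genes tested (73.6% at 12 h without replicate 3).

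MYC transcript was lower with DMF at 12, 24 and 48 h, and the difference was larger at 24 h than at 6 h. At 6 h MYC stood at 263, 257 and 259 CPM in DMF libraries and at 262, 249.6 and 253 CPM in control libraries, which overlapped. The log2 fold change at 6 h was 0.03 ± 0.07 (SE; adjusted p = 0.93). At 12 h MYC had 182, 194 and 194 CPM with DMF, against 235, 224 and 205 CPM in control. Every DMF library was below every control library there, and the log2 fold change was -0.22 ± 0.07 (adjusted p = 0.041; -0.28 and 4.9e-05 in the 22 libraries). That call at 12 h was lost in 15 of 24 fits that left out 1 library, with log2 fold changes between -0.28 and -0.19. At 24 h the values were 173, 159 and 164 CPM in DMF, against 282, 266 and 272 CPM in control, a 1.65-fold lower level (log2 fold change -0.73 ± 0.07, adjusted p = 1.2e-06). At 48 h they were 167, 146 and 153 CPM in DMF, against 322, 319 and 305 CPM in control, a 2.03-fold lower level (-1.02 ± 0.07, adjusted p = 6.1e-09). Groups did not overlap at either time. In bulk RNA, fewer cells with a transcript and less transcript per cell cannot be told apart. The effect of DMF on MYC differed between 24 h and 6 h by -0.75 ± 0.10 on the log2 scale (adjusted p = 0.00011), when 6.48% of all genes showed a difference (3.59% higher and 2.89% lower, and 44.4% in either direction in the 22 libraries). Between 48 h and 24 h it differed by -0.30 ± 0.10 (adjusted p = 0.14; 0.00015 in the 22 libraries).

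MAX, a partner of MYC and of its antagonists, was higher with DMF at 6 and 48 h. At 6 h MAX had 107, 102 and 106 CPM in DMF, against 85.8, 87.1 and 85.0 CPM in control (log2 fold change 0.29 ± 0.09, adjusted p = 0.037). That call ended when replicate 1 or replicate 2 of control at 6 h was left out, and also without the filter on low counts. At 12 h the values were 96.9, 93.6 and 83.0 CPM in DMF and 85.9, 87.8 and 68.1 CPM in control, with the replicate 3 library lowest in both groups. MAX was not called at 12 h (0.18 ± 0.09, adjusted p = 0.18), but it was called in the 22 libraries (0.14, adjusted p = 0.015) and under the replicate block (0.18, adjusted p = 0.0087). At 24 h the groups overlapped, with 84.1, 80.1 and 79.4 CPM in DMF and 84.6, 81.6 and 81.0 CPM in control (-0.02 ± 0.09, adjusted p = 0.92). At 48 h MAX had 69.9, 72.4 and 71.0 CPM in DMF, against 56.2, 59.1 and 55.3 CPM in control, without overlap (0.32 ± 0.09, adjusted p = 0.0089). MAX was thus higher and MYC lower with DMF at 48 h.

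Among the antagonists, MXD1 was higher with DMF at 6, 12 and 24 h. MXD1, a repressor that rises when haematopoietic cells stop dividing and differentiate, had 11.3, 10.8 and 10.4 CPM in DMF at 6 h, against 4.55, 4.29 and 4.46 CPM in control. That was 2.44-fold higher, with no overlap (log2 fold change 1.28 ± 0.23, adjusted p = 0.0009). At 12 h MXD1 had 11.7, 10.7 and 5.35 CPM in DMF, against 4.12, 5.03 and 2.61 CPM in control, and the replicate 3 library was lowest in both groups (1.23 ± 0.23, adjusted p = 0.00083). At 24 h the values were 12.3, 14.9 and 12.8 CPM in DMF, against 7.74, 7.43 and 6.38 CPM in control (0.89 ± 0.22, adjusted p = 0.01). At 48 h MXD1 had 22.2, 22.7 and 21.1 CPM in DMF and 16.9, 14.7 and 20.0 CPM in control. Groups still did not overlap, and the difference was not called in all 24 (0.35 ± 0.22, adjusted p = 0.28) but was in the 22 (0.36, adjusted p = 0.0023). A joint test of whether the effect of DMF differed between the 4 times did not call MXD1 (adjusted p = 0.14), and it did in the 22 libraries (1.7e-05).

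MXI1, the antagonist also known as MXD2, was lower with DMF at 48 h. It had 28.6, 34.4 and 34.1 CPM in DMF at 48 h, against 63.8, 63.0 and 68.0 CPM in control, and every DMF library was below every control library. That was 1.99-fold lower (log2 fold change -0.996 ± 0.27, adjusted p = 0.0094). At 6, 12 and 24 h the groups overlapped, with log2 fold changes of 0.17, 0.07 and -0.18 and adjusted p of 0.76 or more. In the 22 libraries MXI1 was also called at 24 h (-0.17, adjusted p = 0.04). The replicate 3 libraries of 12 h were the lowest of all 24 for MXI1, at 8.55 CPM in DMF and 4.81 CPM in control.

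MXD3, MXD4 and MNT were not called at any time in the fit of 24 libraries. MXD3, an antagonist expressed in proliferating cells of the mouse, had 6.13, 6.85 and 6.53 CPM in DMF at 6 h, against 8.14, 8.27 and 8.29 CPM in control. At 48 h it had 15.2, 12.0 and 12.3 CPM in DMF, against 19.8, 22.9 and 20.6 CPM in control. DMF was below control without overlap at both times, with log2 fold changes of -0.34 (adjusted p = 0.81) and -0.71 (adjusted p = 0.28). Both differences were called in the 22 libraries (adjusted p = 0.01 and 1.2e-07). MXD3 was not lower at 24 h, when the groups overlapped, with means of 11.8 CPM in DMF and 11.4 CPM in control. The log2 fold change at 24 h was 0.04 ± 0.43 (adjusted p = 0.98; 0.73 in the 22 libraries). At 12 h replicate 3 reached 16.97 CPM in DMF and 35.2 CPM in control, while the other libraries of 12 h lay between 5.62 and 8.92 CPM. The log2 fold change at 12 h was -0.83 ± 0.44 and was not called (adjusted p = 0.23), and it lay between -1.49 and 0.22 when 1 library was left out, the highest without replicate 3 of control at 12 h and the lowest without replicate 3 of DMF at 12 h. It was called in the 22 libraries (-0.43, adjusted p = 0.0064) and under the replicate block (-0.67, adjusted p = 0.00092).

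MXD4, a MAX-binding repressor, had 9.55, 10.1 and 8.78 CPM in DMF at 6 h, against 8.31, 8.19 and 7.84 CPM in control, without overlap (0.23 ± 0.33, adjusted p = 0.84; 0.019 in the 22 libraries). It had 15.2, 13.9 and 13.7 CPM in DMF at 24 h, against 8.49, 9.16 and 9.75 CPM in control. At 48 h it had 15.5, 15.04 and 13.8 CPM in DMF, against 10.5, 11.2 and 10.6 CPM in control. DMF was above control without overlap at both times (log2 fold changes 0.64 and 0.45, adjusted p = 0.23 and 0.37), and both differences were called in the 22 libraries (adjusted p = 2.6e-08 and 1.3e-05). Direction turned at 12 h with the library set: it was -0.11 in all 24 (adjusted p = 0.88) and 0.31 in the 22 (adjusted p = 0.0059). Replicate 3 had 20.3 CPM in DMF and 27.6 CPM in control. MNT, a broadly expressed antagonist, ranged over 10.6 to 27.1 CPM in DMF libraries and 11.4 to 28.99 CPM in control libraries. MNT groups overlapped at all 4 times, with log2 fold changes between -0.10 and 0.19, and MNT was not called in the 22 libraries either.

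**Figure D1:**
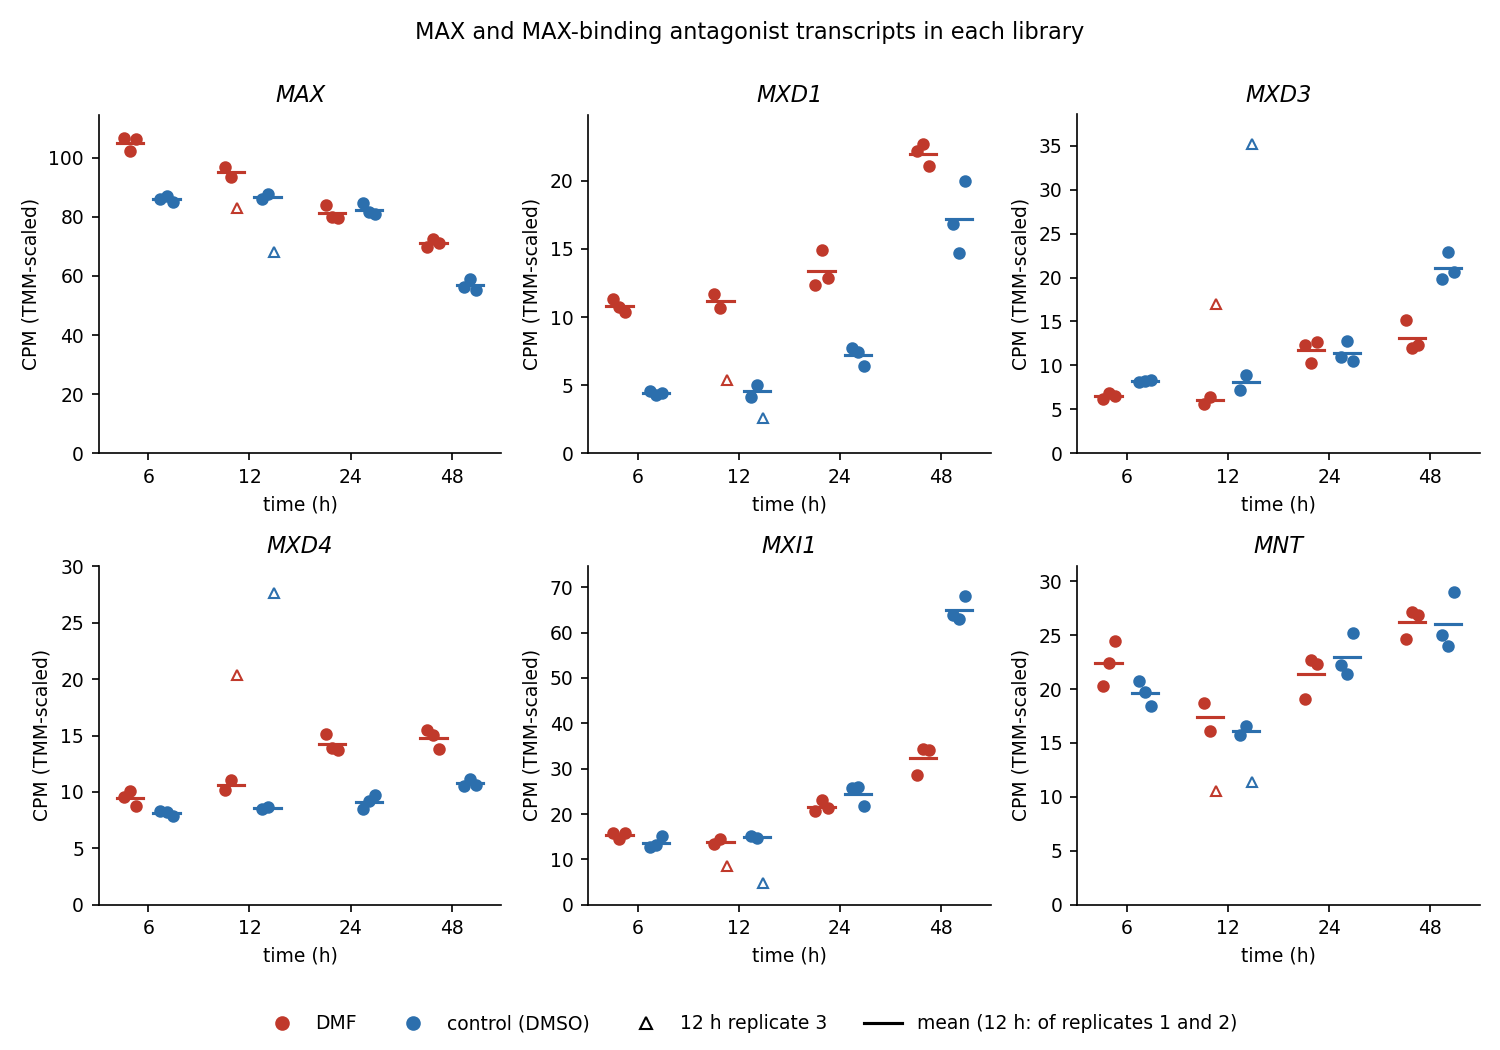
Level of MAX and the 5 antagonists in each library (CPM after TMM scaling, linear axis from 0) by time, with DMF in red left of control in blue; bars are group means, open triangles the replicate 3 libraries of 12 h, left out of the bars. MXD1 lies higher with DMF in every library from 6 to 24 h within its time, and MXI1 at 48 h lies at 28.6 to 34.4 CPM with DMF and 63.0 to 68.0 CPM in control.

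PIM1 and PIM2 were lower with DMF than in control at 24 and 48 h, and PIM3 was higher at 6, 12 and 24 h. PIM1, the kinase induced by cytokines through STAT factors, had 1696, 1705 and 1722 CPM in DMF at 6 h, against 1824, 1825 and 1744 CPM in control. Although groups did not overlap, the log2 fold change was -0.07 ± 0.14 (adjusted p = 0.89). At 12 h PIM1 had 1258, 1313 and 993 CPM in DMF, against 1711, 1855 and 1089 CPM in control, and the control replicate 3 library lay among the DMF values. Its log2 fold change of -0.39 ± 0.14 at 12 h was not called (adjusted p = 0.065), but it was in the 22 libraries (-0.47, adjusted p = 3.6e-09) and under the replicate block (-0.36, adjusted p = 0.00029). At 24 h PIM1 had 1136, 1178 and 1089 CPM in DMF, against 2124, 2070.4 and 2062 CPM in control, a 1.84-fold lower level (-0.88 ± 0.14, adjusted p = 0.00022). At 48 h PIM1 had 1092, 1103 and 1073 CPM in DMF, against 3059, 3156 and 3131 CPM in control. That was 2.86-fold lower (-1.52 ± 0.14, adjusted p = 2.1e-07), the largest difference of any member at any time.

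PIM2, a kinase of haematopoietic cells with roles in survival of myeloma and lymphoma cells, had 526, 523 and 535 CPM in DMF at 6 h, against 488, 479 and 472 CPM in control. This difference of 0.14 ± 0.08 was not called (adjusted p = 0.35), but it was in the 22 libraries (0.0011). On the TPM scale the groups overlapped, with 399, 399 and 394 TPM in DMF and 404, 395 and 396 TPM in control. At 12 h the groups overlapped (0.06 ± 0.08, adjusted p = 0.71). At 24 h PIM2 had 482, 481 and 468 CPM in DMF, against 697, 703 and 687 CPM in control, 1.46-fold lower (-0.54 ± 0.08, adjusted p = 7.8e-05). At 48 h it had 455, 453 and 448 CPM in DMF, against 861, 936 and 882 CPM in control, 1.98-fold lower (-0.98 ± 0.08, adjusted p = 2.8e-08). All DMF libraries were below all controls at both times.

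PIM3 was the member with the smallest p at 6 h. PIM3, a kinase close to PIM1 in sequence, had 331, 323 and 330.3 CPM in DMF at 6 h, against 135, 130.2 and 132 CPM in control, 2.48-fold higher (log2 fold change 1.31 ± 0.07, adjusted p = 3.6e-10). At 12 h it had 221, 230.2 and 242 CPM in DMF, against 114, 119 and 109 CPM in control, 2.03-fold higher (1.02 ± 0.07, adjusted p = 8.4e-09), and the replicate 3 libraries kept to their groups. At 24 h it had 186, 169 and 167 CPM in DMF, against 147, 136 and 142 CPM in control, 1.23-fold higher (0.30 ± 0.07, adjusted p = 0.0052). The call at 24 h was lost when replicate 1 of DMF at 24 h or replicate 2 of control at 24 h was left out. At 48 h the groups overlapped, with 164, 167 and 168 CPM in DMF and 167, 184 and 169 CPM in control (-0.06 ± 0.07, adjusted p = 0.59).

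The effect of DMF differed between 24 h and 6 h for all 3 PIM genes. Between 24 h and 6 h the effect differed by -0.80 ± 0.20 for PIM1 (adjusted p = 0.017), -0.68 ± 0.11 for PIM2 (0.0007) and -1.01 ± 0.10 for PIM3 (2.5e-06) on the log2 scale. Between 48 h and 24 h, a contrast that shares the 24 h libraries with the one before and in which 3.12% of all genes showed a difference (1.65% higher and 1.47% lower, and 41.2% in either direction in the 22 libraries), it differed by -0.44 ± 0.11 for PIM2 (adjusted p = 0.033) and -0.36 ± 0.10 for PIM3 (0.048). For PIM1 it differed by -0.64 ± 0.20 (adjusted p = 0.092; 8.6e-10 in the 22 libraries). In 5 of 24 fits that left out 1 library, those of control 6 h replicate 1, control 6 h replicate 2, control 48 h replicate 1, control 48 h replicate 3, DMF 48 h replicate 1, edgeR called 0 members for 48 h against 24 h, with 5 at an unadjusted p under 0.05. MYC, PIM1, PIM2 and PIM3 were the 4 members called by the joint test of whether the effect differed between times (adjusted p = 3.3e-06, 0.00023, 2.6e-06 and 9.8e-08), when 15% of all genes were called. Under the replicate block and in the 22 libraries that test called 9 members, in the 22 beside 69.1% of all genes.

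**Figure D2:**
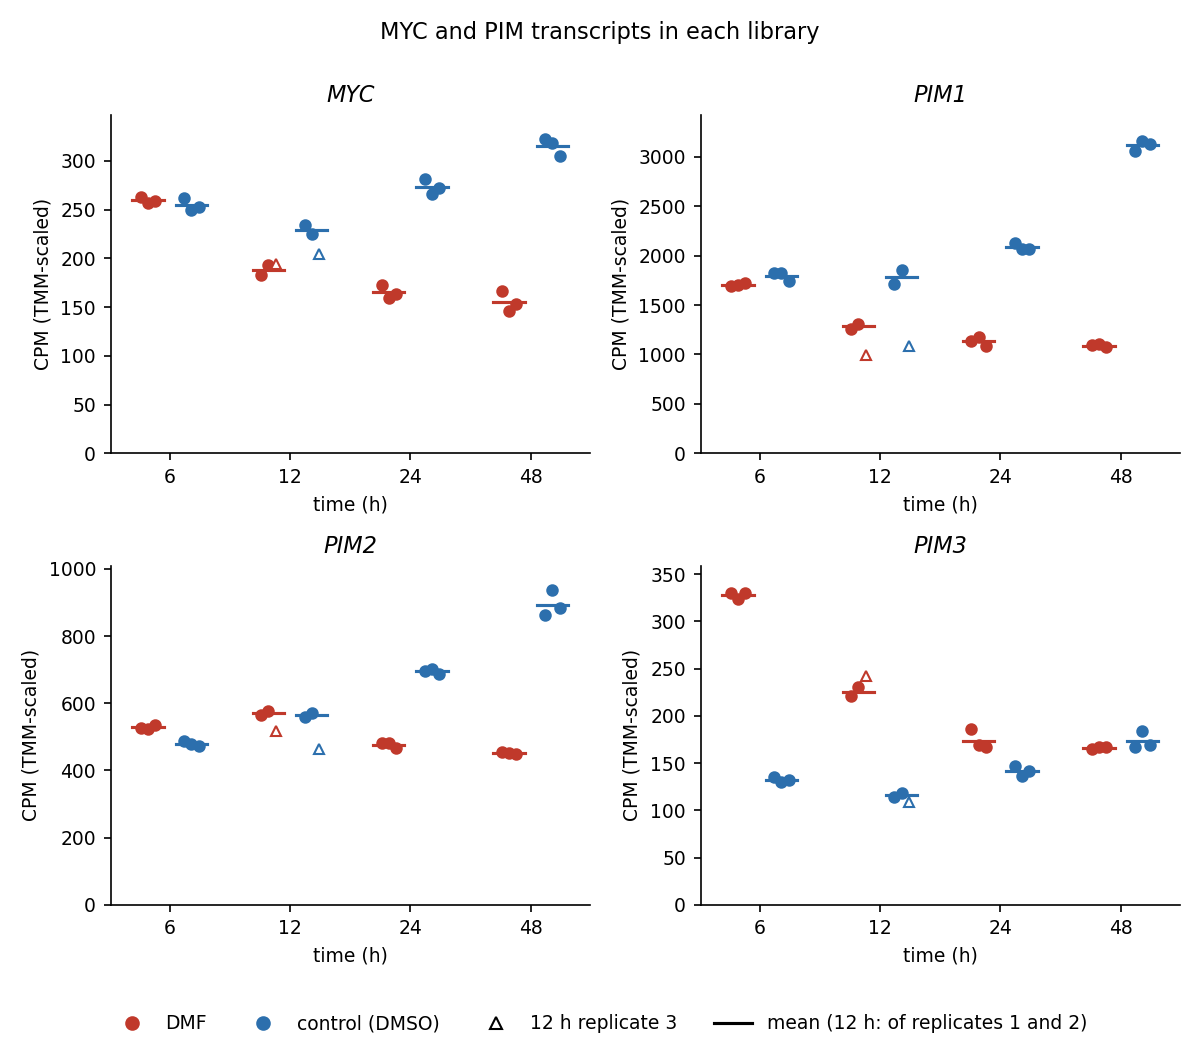
Level of MYC, PIM1, PIM2 and PIM3 in each library (CPM after TMM scaling, linear axis from 0) by time, with DMF in red left of control in blue; bars are group means, open triangles the replicate 3 libraries of 12 h, left out of the bars. DMF and control separate at 24 and 48 h for MYC, PIM1 and PIM2, whereas PIM3 is apart at 6 and 12 h and overlaps at 48 h.

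**Figure D3:**
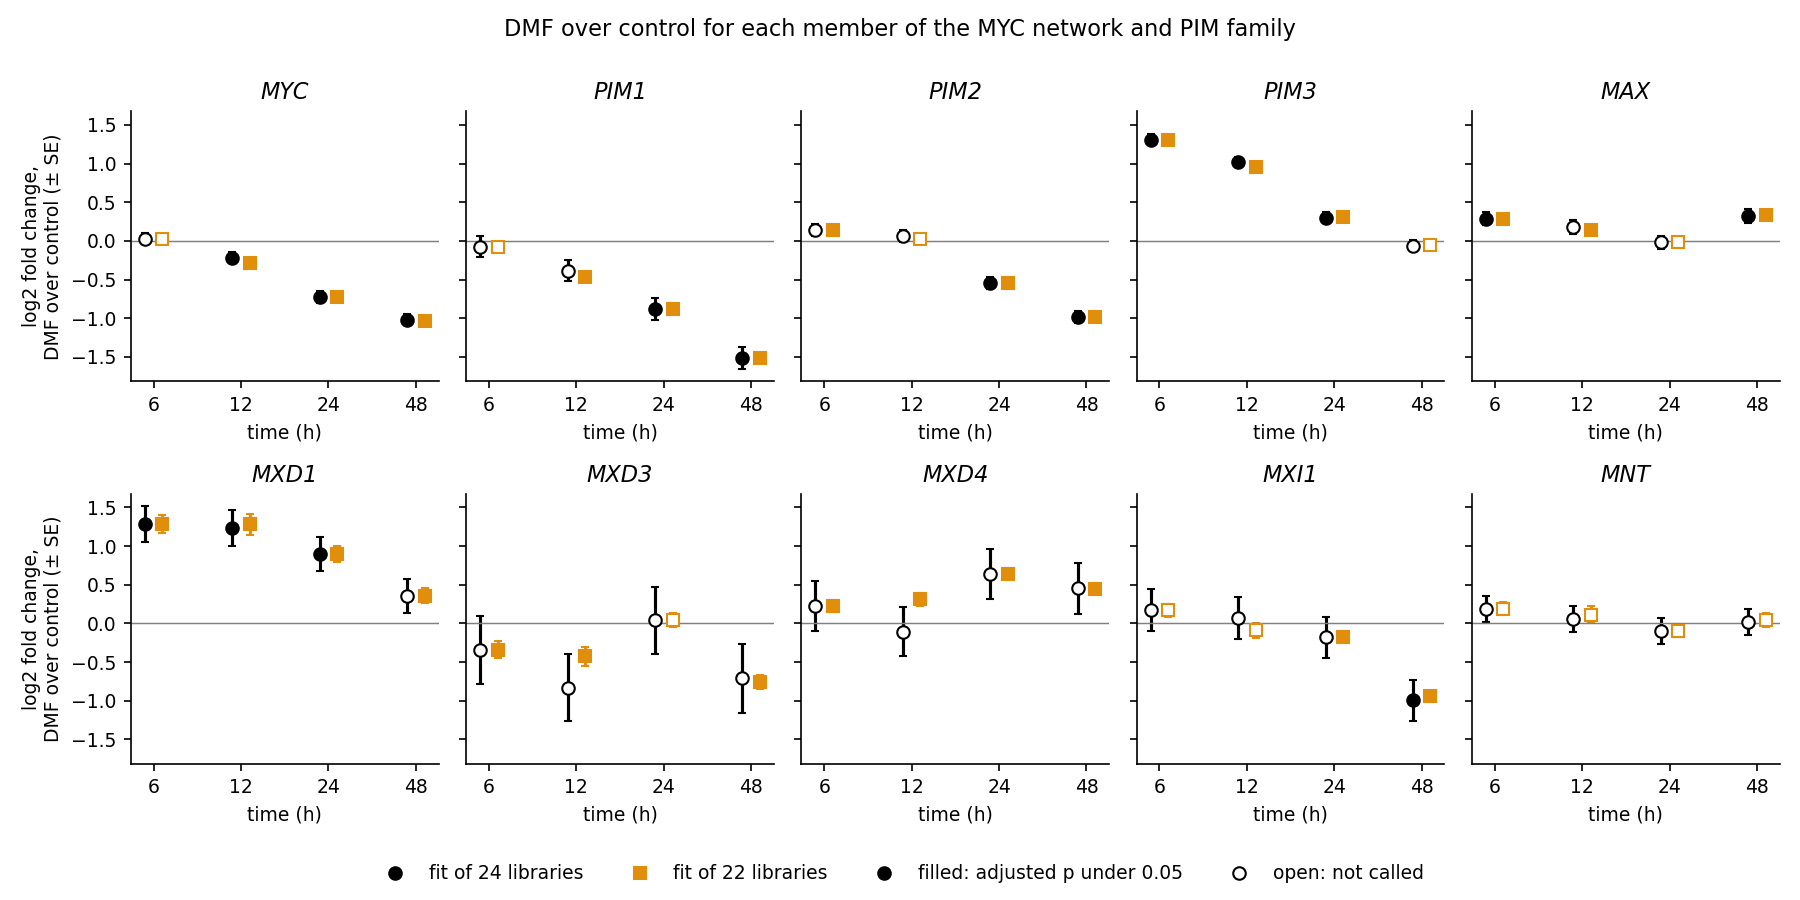
Log2 fold change, DMF over control, of each member by time, with its standard error, from all 24 libraries (circles) and from the 22 without replicate 3 of 12 h (squares); filled symbols have an adjusted p under 0.05. MYC, PIM1 and PIM2 lie lower at each later time, to -1.02, -1.52 and -0.98 at 48 h, and PIM3 lies at 1.31 at 6 h and -0.06 at 48 h.

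Directions were also read on the TPM scale. Over all genes, the median DMF minus control difference on log2(TPM + 1) was shifted against TMM-scaled CPM by -0.10, -0.07, -0.04 and 0.17 at 6, 12, 24 and 48 h in the 22 libraries. MYC, PIM1 and PIM2 kept their direction at 24 and 48 h, and PIM3 and MXD1 at 6, 12 and 24 h, under TMM, DESeq2 size factors and TPM. On log2(TPM + 1), however, limma did not call MYC or PIM2 at 24 or 48 h, PIM1 or PIM3 at 24 h, or MXD1 at any of these times, and the calls of MAX at 6 and 48 h, MXI1 at 48 h and MYC at 12 h were lost too. It kept PIM1 at 48 h and PIM3 at 6 and 12 h, and it called MXD3 at 12 h and MXD4 at 24 and 48 h. On TPM, MYC at 6 h had 90.2, 88.6 and 86.1 TPM in DMF and 98.3, 93.1 and 96.0 TPM in control, a direction opposite to that of its CPM. PIM3 at 48 h likewise turned, with 137, 144 and 142 TPM in DMF and 123, 123 and 127 TPM in control.

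Ratios of TPM between members within a library do not use the library's depth. The summed TPM of the 5 antagonists over that of MYC averaged 0.309 ± 0.010 with DMF and 0.296 ± 0.010 in control at 6 h (SD, n = 3 each), which overlapped. It averaged 0.702 ± 0.029 with DMF and 0.401 ± 0.030 in control at 24 h, and 0.950 ± 0.065 with DMF and 0.664 ± 0.042 in control at 48 h, with no overlap at either time. The summed antagonist TPM itself was 60.8 to 63.4 with DMF at 48 h and 69.6 to 80.9 in control. Both that sum and MYC were lower with DMF. MAX over MYC was 1.15 ± 0.11 with DMF and 0.458 ± 0.019 in control at 48 h. At 12 h the ratio of antagonists to MYC was 0.396 and 0.408 with DMF and 0.305 and 0.352 in control in replicates 1 and 2, against 0.550 with DMF and 0.829 in control in replicate 3, so its direction there depended on replicate 3.

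PIM3 made up 13.7% ± 0.144 of the summed PIM TPM with DMF and 5.98% ± 0.145 in control at 6 h (SD, n = 3 each). Its share was 10.4% ± 0.538 with DMF and 5.21% ± 0.159 in control at 24 h, and 10.4% ± 0.169 with DMF and 4.51% ± 0.138 in control at 48 h. DMF libraries were above control libraries in PIM3 share at every time, replicate 3 of 12 h included (14.5% with DMF and 6.99% in control). PIM1 held 58.7% ± 0.246 with DMF and 70.0% ± 0.651 in control at 48 h. The sum over the 3 kinases was 1339 to 1392 TPM with DMF and 2638 to 2893 TPM in control at 48 h.

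**Figure D4:**
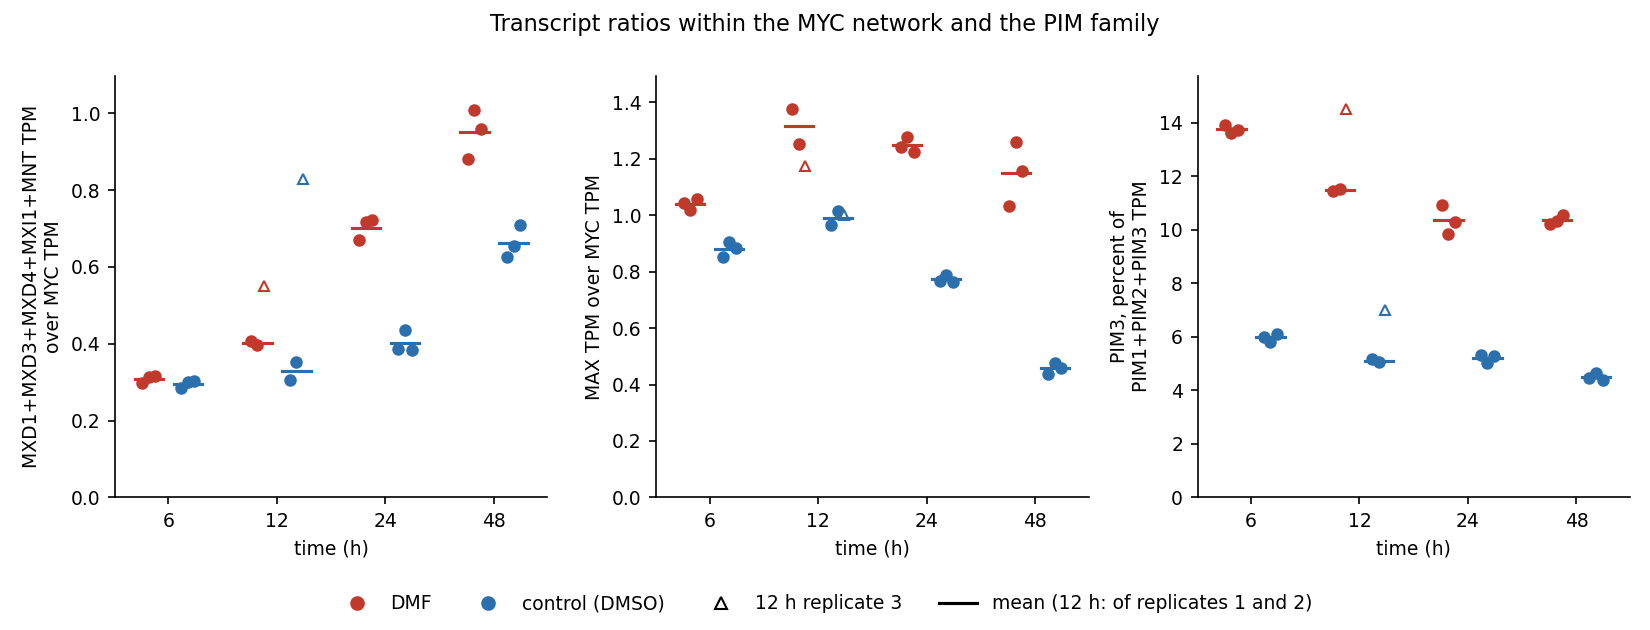
Ratios of TPM within each library by time, with DMF in red left of control in blue: the 5 antagonists over MYC, MAX over MYC, and PIM3 as a percentage of the 3 PIM genes; bars are group means and open triangles the replicate 3 libraries of 12 h, left out of the bars. PIM3 share lies at 9.86% to 14.5% with DMF and 4.40% to 6.99% in control, and the antagonist ratio reaches 0.950 with DMF and 0.664 in control at 48 h.

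Members also differed between times within the control arm, whose libraries are the same as those used in the differences between DMF and control. Control at 48 h differed from control at 6 h for 8 of the 10 members, 7 higher and 1 lower, when 42.0% of all genes were called (21.6% higher, 20.4% lower, and 75.0% in either direction in the 22 libraries). MXI1 was 4.75-fold higher at 48 h (log2 fold change 2.25 ± 0.28, adjusted p = 2.7e-06) and MXD1 3.87-fold higher (1.95 ± 0.23, adjusted p = 1.6e-06). PIM2 was 1.86-fold higher (0.90 ± 0.08, adjusted p = 3.3e-08), PIM1 1.73-fold higher (0.79 ± 0.14, adjusted p = 0.00014) and MYC 1.24-fold higher (0.31 ± 0.07, adjusted p = 0.0018). MXD3 (1.36) and PIM3 (0.39) were also higher, and MAX was 1.51-fold lower (-0.60 ± 0.09, adjusted p = 1.7e-05). At 24 h against 6 h, MXD1 (0.70), MXI1 (0.84) and PIM2 (0.54) were higher in control, when 16.8% of all genes were called (9.29% higher, 7.53% lower, and 56.5% in the 22 libraries). At 12 h against 6 h PIM3 alone was called (-0.21, adjusted p = 0.039), beside 18.8% of all genes (12.0% higher, 6.84% lower, and 39.6% in the 22 libraries), and that call was lost in at least 17 of 24 fits that left out 1 library. Mean PIM1 in DMF libraries was 1708 CPM at 6 h, 1134 CPM at 24 h and 1089 CPM at 48 h, and mean MXI1 was 15.4, 21.7 and 32.4 CPM. At the same times mean PIM2 in DMF libraries was 528, 477 and 452 CPM, and mean PIM3 was 328, 174 and 166 CPM.

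Other genes of the MAX network and the MYC machinery were read from lists, in which 0 to 2 genes of each were called at a time in the fit of 24 libraries. Beside them, 10.6%, 17.3%, 14.4% and 25.8% of all genes were called at 6, 12, 24 and 48 h. In the 22 libraries at 24 h, 1 of 10 cofactor genes was higher and 8 were lower, 2 of 10 turnover genes were higher and 8 lower, and 2 of 10 corepressor genes were higher and 3 lower, when 57.4% of all genes were called. At 48 h in the 22 libraries, 4 cofactor genes were higher and 2 lower, and 3 turnover genes were higher and 4 lower. Of the corepressor genes 4 were higher and 4 lower at that time, when 64.5% of all genes were called. At 48 h the list medians were 0.02 for the extended network, 0.06 for cofactors, -0.02 for turnover and 0.03 for the corepressor complex. Of 5 tested genes of the extended network, TFAP4, a MYC-induced E-box repressor, was lower at 12, 24 and 48 h (log2 fold changes -0.33, -0.52 and -0.73, adjusted p = 0.028, 0.0013 and 2.6e-05). MLXIP, a glucose-responsive partner of MLX, was higher at 48 h (0.39, adjusted p = 0.0013). Of 10 genes for MYC cofactors, KAT5, the acetyltransferase TIP60, was lower at 24 and 48 h (-0.27 and -0.25, adjusted p = 0.042 and 0.038), and the call at 48 h was lost with DESeq2. None of the 10 was called at 6 or 12 h by edgeR, where 0 had an unadjusted p under 0.05 and DESeq2 called 0, while limma on log2(TPM + 1) called 1 at 6 h and 0 at 12 h. Of 10 genes for MYC protein turnover, SKP2, a ubiquitin ligase subunit for MYC and p27, was lower at 24 and 48 h (-0.69 and -0.93, adjusted p = 0.028 and 0.0026). AURKA, the kinase that shields MYCN from degradation, was higher at 12 h (0.45, adjusted p = 0.016) and lower at 48 h (-0.41, adjusted p = 0.02). Of 10 genes of the SIN3 corepressor complex used by MXD proteins, HDAC2 was lower at 24 and 48 h (-0.22 at both times) and RBBP7 at 48 h (-0.28). On log2(TPM + 1) the calls of KAT5, SKP2, AURKA, HDAC2 and RBBP7, of MLXIP and of TFAP4 at 12 and 24 h were lost, and limma called 1 corepressor gene higher and 0 lower at 24 h and 2 higher and 0 lower at 48 h, where 0 had an unadjusted p under 0.05 in the lower direction.

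In the fit of 24 libraries, the share of known MYC-activated targets called at 24 and 48 h was near that of all genes. At 24 h 1 of 30 was higher and 4 were lower, beside 14.4% of all genes called, with a list median of -0.16 against 0.01 over all genes. At 48 h 3 were higher and 4 lower, beside 25.8% of all genes called, with a median of 0.03 against 0.02. In the 22 libraries 3 were higher and 15 lower at 24 h (57.4% of all genes called), and 13 were higher and 12 lower at 48 h (64.5%). The balance at 48 h depended on scaling, since limma on log2(TPM + 1) called 11 higher and 3 lower. At 6 h edgeR called 0 of 30 and 4 had an unadjusted p under 0.05, DESeq2 called 2 higher, and limma on log2(TPM + 1) called 1 higher and 4 lower. In the 22 libraries 14 were higher and 4 lower at 6 h (47.2% of all genes called). TERT, the telomerase catalytic subunit, averaged 6.99 CPM with DMF and 25.0 CPM in control at 48 h (-1.83 ± 0.21, adjusted p = 3e-06). CCND2, the gene of cyclin D2, averaged 441 CPM with DMF and 874 CPM in control at 48 h (-0.99 ± 0.08, adjusted p = 5.4e-08), and it was already lower at 12 h (-0.64, adjusted p = 2.3e-05). NPM1, a nucleolar chaperone, was lower at 48 h (-0.63, adjusted p = 7e-06). ODC1, the rate-limiting enzyme of polyamine synthesis, was higher, with 1733 CPM with DMF and 1095 CPM in control at 12 h (0.66 ± 0.11, adjusted p = 0.00027). In control, 20 of the 30 targets were lower at 48 h than at 6 h and 3 were higher. Of all genes, 20.4% were lower and 21.6% higher in that comparison. In the 22 libraries 25 targets were lower and 4 higher, beside 75.0% of all genes called. MYC itself was higher in control at 48 h, and its bearing on the targets was not tested.

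Genes that MYC is known to repress were divided. At 24 h 4 of 10 were higher and 1 lower, beside 14.4% of all genes called (list median 0.13). At 48 h 2 were higher and 4 lower, beside 25.8% of all genes called (list median -0.56). In the 22 libraries 4 were higher and 2 lower at 24 h (57.4% of all genes called). There, 3 were higher and 6 lower at 48 h (64.5%). On log2(TPM + 1) limma called 1 higher and 1 lower at 24 h, and 1 higher and 2 lower at 48 h. CDKN1A, the gene of the cell-cycle inhibitor p21, was higher at 6, 24 and 48 h (log2 fold changes 0.72, 0.78 and 0.36, adjusted p = 8.1e-06, 3.2e-06 and 0.0026). CDKN2B, the gene of p15, was higher at 24 and 48 h (1.25 and 2.31, adjusted p = 0.0045 and 1.2e-05) at levels of 2.31 and 2.46 CPM with DMF and 0.965 and 0.548 CPM in control. BTG2, an antiproliferative gene, averaged 239 CPM with DMF and 137 CPM in control at 24 h (0.80, adjusted p = 0.0009). GADD45A (-1.48, adjusted p = 8.8e-06) and NDRG1 (-0.71, adjusted p = 5.5e-05) were lower at 48 h, and BTG1 was lower at 6 and 12 h (-0.55 and -0.56, adjusted p = 0.022 and 0.014). On log2(TPM + 1) limma called 0 of the list at 6 and 12 h, so the calls of CDKN1A at 6 h and of BTG1 were lost.

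Of 16 genes for PIM substrates, edgeR called 2 higher and 0 lower at 6 and at 12 h, with 1 lower at an unadjusted p under 0.05 at each time, and 1 higher and 3 lower at 24 and at 48 h (list medians 0.14, 0.03, -0.03 and -0.14). These counts stand beside 10.6%, 17.3%, 14.4% and 25.8% of all genes called, and their share at 48 h was near that of all genes. DESeq2 called 3 higher and 0 lower at 6 h, and 2 higher and 2 lower at 12 h. In the 22 libraries 8 were higher and 3 lower at 6 h (47.2% of all genes called). There, 7 were higher and 5 lower at 12 h (47.9%). On log2(TPM + 1) limma called 0 lower at any time, so the lower calls of EIF4B and RUNX3 were lost there. EIF4B, a translation initiation factor that PIM kinases phosphorylate, averaged 859 CPM with DMF and 1719.8 CPM in control at 48 h (log2 fold change -1.001 ± 0.16, adjusted p = 7.6e-05). RUNX3 was lower at 24 and 48 h (-0.82 and -0.85, adjusted p = 0.0084 and 0.0037). SOCS1, an inhibitor of JAK kinases whose protein PIM kinases stabilise, averaged 5.88 CPM with DMF and 2.07 CPM in control at 6 h (1.4996 ± 0.15, adjusted p = 2.2e-06), and it was higher at 12 h too (1.13, adjusted p = 6.2e-05).

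**Figure D5:**
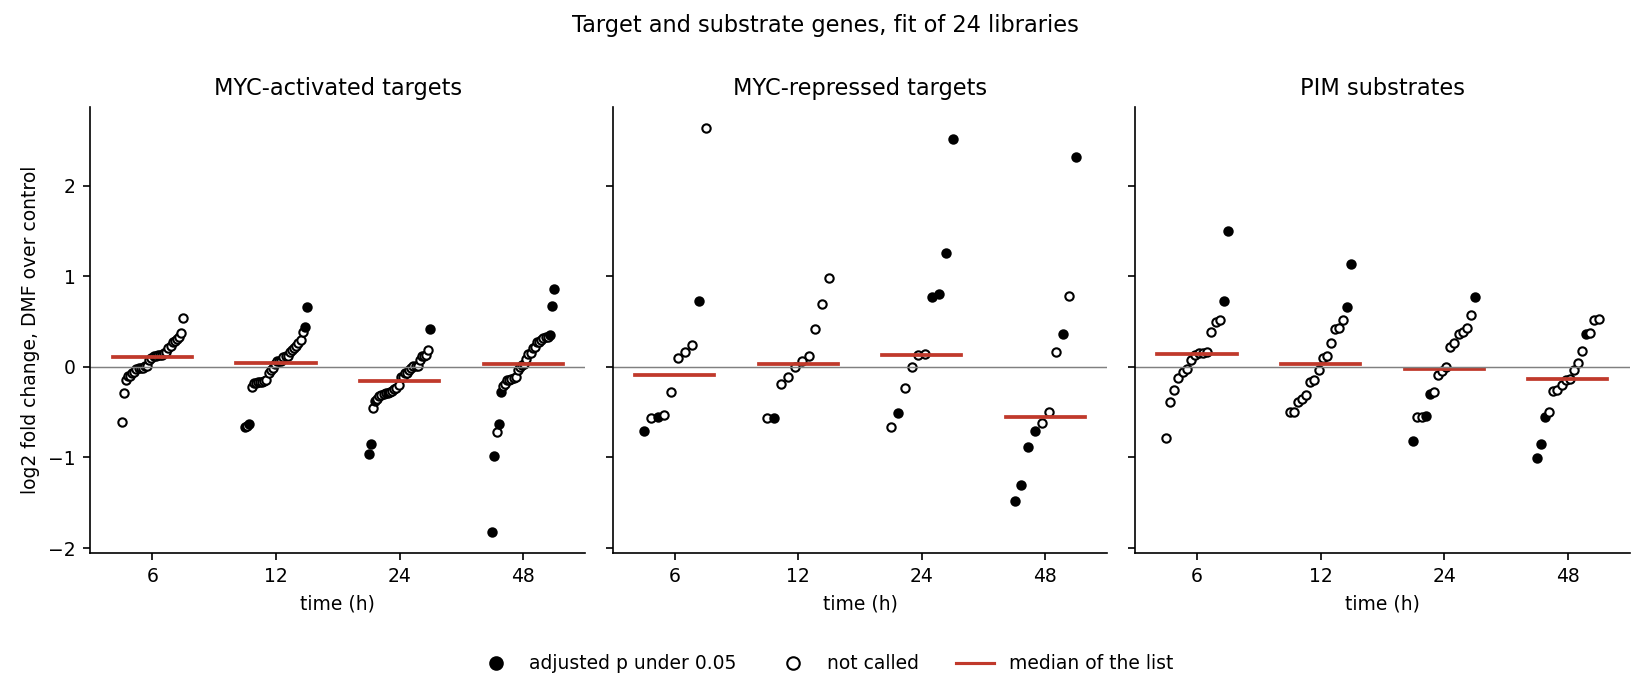
Log2 fold change, DMF over control, of the genes for MYC-activated targets (30), MYC-repressed targets (10) and PIM substrates (16) by time, ordered by size within each time, from all 24 libraries; filled points have an adjusted p under 0.05 and red bars are medians. Points lie on both sides of 0 at each time, and the MYC-activated targets have medians between -0.16 and 0.10.

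Genes of the JAK-STAT and NF-kB factors that induce PIM transcription were called lower with DMF more often than higher. Of 14 such genes, 3 were lower at 6 h, 5 at 12 h, 3 at 24 h and 8 at 48 h (list medians -0.36, -0.50, -0.45 and -0.38). Only 1 was higher, RELA at 12 h (0.25, adjusted p = 0.023), which is named after its value was seen. Beside them, 5.59%, 9.95%, 6.60% and 12.5% of all genes tested were lower at the 4 times. In the 22 libraries 9, 11, 12 and 11 of the list were lower and 2, 1, 0 and 0 higher. In either direction 47.2%, 47.9%, 57.4% and 64.5% of all genes were called there. On log2(TPM + 1) limma called 1, 4, 4 and 4 lower and 0 higher. The calls of RELA and of some lower genes at 6, 12 and 48 h were thus lost. JAK3, the kinase of common gamma chain receptors, was lower at all 4 times (log2 fold changes -0.96, -1.31, -1.29 and -1.38, adjusted p of 7.9e-07 or less). STAT5A was lower at 12, 24 and 48 h (-1.44, -1.497 and -1.31), and it averaged 12.99 CPM with DMF and 31.8 CPM in control at 48 h. Chosen after their values were seen, the NF-kB genes NFKB2 (-1.31, adjusted p = 0.0007), RELB (-1.27, adjusted p = 0.0028) and NFKB1 (-0.78, adjusted p = 0.016) were lower at 48 h. STAT3, likewise chosen, was not called at any time (0.05, 0.02, -0.45 and -0.21, adjusted p of 0.31 or more). JAK3, STAT6 and TYK2 were lower at 6 h, when PIM1 and PIM2 were not called. Whether these transcripts bear on PIM1 and PIM2 was not tested.

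Patterns over libraries were compared by Pearson correlation of log2 CPM in the 22 libraries, among 11404 genes with a mean of at least 1 CPM; the libraries share treatment and time groups, so the values only describe. MYC and PIM1 had r = 0.94, PIM1 and PIM2 0.87, and MAX and MXD3 -0.94. The genes nearest to MYC were IRF4, a transcription factor on which this lymphoma type depends (r = 0.970), EBI3, a cytokine subunit (0.970), and CYB5R2 (0.967). Nearest to PIM1 were EBI3 (0.983), EIF4B (0.977) and CD37 (0.976). Nearest to PIM3 were DEDD2 (0.951), TRIB3, a pseudokinase of the ATF4 response (0.945), and SOCS1 (0.941). Nearest to PIM2 were NUCKS1, PRR11 and VDAC1 (0.967 to 0.956), and nearest to MAX were NARS, TIMM44 and DNAJA3 (0.989 to 0.982). MXD1 lay nearest to ADM, TEC and UAP1L1 (0.969 to 0.965), MXI1 to BBC3, KDM4B and COG6 (0.983 to 0.9801), MXD3 to HMG20B, EVL and NRN1 (0.981 to 0.972) and MXD4 to TMEM59, LAGE3 and ZBTB8OS (0.962 to 0.959). MNT had the weakest neighbours, GSE1, LOC101927509 and CYBRD1 (0.908 to 0.882). Over all 24 libraries r was under 0.8 for 6 of these 30 pairs, NRN1 with MXD3 (0.586), CD37 with PIM1 (0.589), TIMM44 with MAX (0.630), IRF4 with MYC (0.735), TRIB3 with PIM3 (0.745) and DEDD2 with PIM3 (0.768), so their likeness depended on leaving out the replicate 3 libraries of 12 h.

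The deposited tables also give a transcript length per gene, weighted by isoform use. MXD3 was longer with DMF at 6 h (1734 ± 55 bases with DMF and 1631 ± 14 bases in control, SD, n = 3 each), without overlap. It was also longer at 12 h (1667 ± 37 and 1592 ± 22 bases with DMF and in control) and at 48 h (1521 ± 7.0 and 1504 ± 7.8 bases). MXD3 lengths overlapped at 24 h (1545 ± 1.9 and 1533 ± 12 bases). MAX averaged 1920 ± 3.7 bases with DMF and 1895 ± 15 bases in control at 6 h. MXD4 was longer with DMF at 24 h (3574 ± 79 and 3419 ± 91 bases), and MXI1 was shorter at 6 h (3331 ± 8.9 and 3352 ± 6.2 bases). DMF and control lengths did not overlap in 9 of 28 comparisons, and the share over all genes was not computed. With 3 libraries against 3 the smallest p of an exact permutation test is 0.1, and none of 28 such tests could go below it, so length differences were not called.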

How the data were processed

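RNA-seq of HBL1 was given as 1 gene table per library. Per the submitters' processing notes, HISAT2, HISAT and RSEM were used with GRCh38.p12. The authors' deposited tables hold an expected count (RSEM's estimate, not normalized) and TPM, scaled by effective length, for each gene, with transcript lengths in bases weighted by isoform. Strand setting and versions are not given in the sources used here. Between 6.16% and 11.53% of expected counts were not whole, and they were rounded.

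Counts were tested with edgeR 4.0.16 (R 4.3.3): quasi-likelihood F-test, TMM, filterByExpr by group, 1 fit of 8 groups, Benjamini-Hochberg over all genes tested, called at an adjusted p under 0.05. The same test was run in 22 libraries, without replicate 3 of 12 h. CPM was computed from TMM-scaled totals. Alternatives were DESeq2 1.42.0, its size factors in edgeR, no filter on low counts, the compared groups alone, a replicate block within each time, limma 3.58.1 on log2(TPM + 1) and log2(TPM + 0.1), and leaving out each library. Scripts were tested on simulated data. Lengths were compared by an exact two-sided permutation test.

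Same-numbered libraries of a time deviated together at 12 h, with all 3 correlations over 0.1 there, and the correlation was 0.039 without replicate 3. Pairing comes from the data and not from the labels. No pair of replicates was a duplicate.

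Named genes are all 10 members, up to 3 genes of smallest p per list and time, and the 3 genes of highest correlation with each member; others are said to be chosen after their values were seen. Members and lists were chosen with earlier results of these data known.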

Additional observations from a re-analysis of the deposited data

Results flagged for a closer look

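A test of the difference between times singled out 6 effects of DMF (edgeR quasi-likelihood test, Benjamini-Hochberg over all genes). At 24 h minus 6 h, the log2 effect differed by -0.75 for MYC, -0.80 for PIM1, -0.68 for PIM2 and -1.01 for PIM3. At 48 h minus 24 h it differed by -0.44 for PIM2 and -0.36 for PIM3, and these share the 24 h libraries with the first contrast.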

How the results depend on the processing

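Of 16 called differences of members between DMF and control, 461 of 512 values under the alternatives kept direction and call, 51 lost the call and 0 reversed, and 2 were kept in all, PIM1 at 48 h and PIM3 at 6 h. Each difference had 32 such values, 24 from fits that left out 1 library and 8 from other settings. Those 24 fits share most libraries with the main fit, so the pooled count says little about the 8. MYC at 12 h alone lost its call in 20 of its 32 values. Of 24 differences not called, 58 values became called. MXD4 at 12 h reversed to 0.31 in the 22 libraries and ranged over -0.48 to 0.67 when 1 library was left out, the highest without replicate 3 of control at 12 h. The reported counts of members called were 3, 3, 5 and 5 at 6, 12, 24 and 48 h, 4 for 24 h minus 6 h, 2 for 48 h minus 24 h, 1, 3 and 8 in control at 12, 24 and 48 h against 6 h, and 4 in the joint test. All genes called were 1425, 2324, 1933 and 3465. In the 22 libraries members were 6, 7 and 8 at 6, 12 and 48 h, 8 and 8 for the differences between times, 4 and 7 in control at 12 and 24 h and 9 jointly, and all genes were 6421, 6515, 7805 and 8775. With the replicate block, which pairs libraries by number, members were 6 at 12 h, 8 at 48 h, 8 for 48 h minus 24 h and 9 jointly, and all genes were 4789, 6411, 6334 and 7425. With only the groups compared, members were 8, 0 and 8 at 6, 12 and 48 h, 10 and 8 for the differences, and 0 and 8 in control at 12 and 24 h, and all genes were 7256, 0, 7817 and 7735. At an unadjusted p under 0.05, the 12 h counts of 0 were 2 members and 1109 genes. On log2(TPM + 1) limma called 1, 1 and 2 members at 6, 24 and 48 h, 0 for both differences (3 and 0 unadjusted), 0, 1 and 3 in control at 12, 24 and 48 h, 1 jointly, and 1168 genes at 12 h. On log2(TPM + 0.1) it called the same numbers of members and 936, 1257 and 1259 genes at 6, 12 and 24 h. DESeq2 called 5 members at 12 h, 5 for 48 h minus 24 h, 5 in control at 12 h and 7 jointly. DESeq2 size factors gave 0 in control at 12 h (6 unadjusted). Without the filter there were 0 for 48 h minus 24 h (6 unadjusted) and 0 and 1 in control at 12 and 24 h (5 unadjusted at 12 h). The cause of these changes was not tested. Leaving out 1 library gave members from 2 to 3, 2 to 5, 4 to 6 and 5 to 6 at the 4 times, 4 to 5 and 0 to 6 for the differences, 0 to 5, 1 to 3 and 7 to 9 in control, and 4 to 7 jointly. All genes ranged over 1005 to 2645, 1711 to 4344, 1282 to 3577 and 2684 to 5298. Depth, lowest in replicate 1 of DMF at 48 h, limits the antagonists most, with counts down to 50.17.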
